A study of Homo sapiens with 18 samples.

Results

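The response of A549 cells to siRNA1, 1 of 3 small interfering RNAs against BLM, was measured by RNA sequencing in 3 libraries and set against 3 libraries of A549 cells that received a control siRNA. Of the 27968 gene symbols in the files, the 13785 with at least 1 CPM (counts scaled to the library total) in at least 3 of these 6 libraries were tested, and the other 14183 were too low. A549 is an established human lung cancer cell line. The series was made to find genes that BLM regulates in cancer cells, and it holds 18 libraries in 6 groups of 3. Those are A549 with the control siRNA, siRNA1, siRNA2 or siRNA3, and the breast cancer line MDA-MB-231 with the control siRNA or siRNA1. Cells of all groups were grown in DMEM with 10% serum and transfected, and no other treatment, genetic change or time after transfection is given for any group. The extraction protocol names both flat culture at about 80% confluence and 3D culture on day 4, and no label ties a library to either. That siRNA1 is the same molecule in both lines is taken from its shared name. Whether the 3 libraries of each group are separate cultures is not stated, and p-values therefore reflect only library-to-library spread, possibly technical.

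BLM is a RecQ-family DNA helicase that takes apart crossed-over DNA strands left by recombination and stalled replication forks, and its inherited loss causes Bloom syndrome, with frequent exchange between sister chromatids. An siRNA is a short RNA duplex, 1 strand of which guides the silencing complex to messenger RNAs that it can pair with. siRNAs against 1 target differ in sequence and so in the other transcripts they can pair with, and the sequences of the 3 siRNAs are not used here. A cell that stops dividing lowers replication and mitosis genes as a block, and the p53 pathway raises cell cycle inhibitors and repair genes. The rest of the response, outside those programmes, is the main subject here.

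The target fell in every siRNA1 library. BLM stood at 81.3, 84.5 and 73.4 CPM in the control libraries and at 1.2, 1.2 and 1.17 CPM with siRNA1, on library sizes scaled with TMM (trimmed mean of M values), the scale used below unless another is named. The log2 fold change was -6.06 (SE 0.11, edgeR quasi-likelihood test with Benjamini-Hochberg adjustment, adjusted p 3.8e-11), and no siRNA1 library came near a control library. The remaining BLM level was lower than with siRNA2 (log2 difference -3.14, adjusted p 3.5e-11) and lower than with siRNA3 (-2.45, adjusted p 3.9e-10). Below, "rose" and "fell" mean an adjusted p under 0.05 in this edgeR test, and errors after log2 fold changes are standard errors.

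The 6 libraries had 34598403 to 40328208 expected counts. TMM factors were 1.049 to 1.060 with siRNA1 and 0.936 to 0.954 in control, and 5.64% to 7.13% of counts fell on the 10 most abundant genes. None of the 6 epithelial markers stayed below 1 CPM in all libraries, and their summed level was 7042 to 7564 CPM in control and 11849 to 14009 CPM with siRNA1. All 7 endothelial and all 7 hepatocyte markers stayed below 1 CPM in the 6 libraries, as did 6 of 8 leukocyte and 4 of 8 fibroblast markers. The summed fibroblast markers were 5.64 to 5.74 CPM in control and 26.8 to 32.2 CPM with siRNA1, most of it from the collagen gene COL1A1. Because these are bulk samples, fewer cells of a type and less RNA per cell cannot be told apart.

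Promoter sequences are shown for the target and for genes at both ends of the response. The 100 bases before the transcription start are given for BLM, for PIF1 and ERCC6L, which after LOC102723360 had the lowest fold changes outside the cell division and p53 lists, and for UGT2B15, HABP2 and MUC19, which after the readthrough gene TMEM256-PLSCR3 had the highest, among genes with a mean log2 CPM of at least 1. They are RefSeq sequences of the GRCh38.p14 assembly, written 5′ to 3′ on the gene's strand, with matched motifs in capitals. Both strands were searched. The NF-Y box was searched as CCAAT. The cell cycle homology region (CHR) was searched as TTTGAA and, as its second form TTCGAA. The E2F motifs were TTTCCCGC, TTTCGCGC, TTTGCCGC and TTTGGCGC. The box bound by TBP was searched as TATAAA. The AP-1 motif was TGANTCA and the antioxidant response element TGACNNNGC. The motif of TEAD factors was GGAATG, and the CArG box and the p53 decamer were searched by their usual consensus. A match is a description of letters and not a bound site.
BLM: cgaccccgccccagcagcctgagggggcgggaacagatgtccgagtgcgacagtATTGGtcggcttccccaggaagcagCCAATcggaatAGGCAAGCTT
PIF1: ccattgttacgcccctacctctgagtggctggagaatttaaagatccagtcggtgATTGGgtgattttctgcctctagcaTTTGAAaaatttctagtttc
ERCC6L: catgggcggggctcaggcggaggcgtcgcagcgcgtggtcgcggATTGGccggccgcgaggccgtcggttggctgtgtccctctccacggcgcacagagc
UGT2B15: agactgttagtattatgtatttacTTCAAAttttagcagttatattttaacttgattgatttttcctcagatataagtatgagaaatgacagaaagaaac
HABP2: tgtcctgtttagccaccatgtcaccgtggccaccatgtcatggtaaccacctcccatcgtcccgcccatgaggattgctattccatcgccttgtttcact
MUC19: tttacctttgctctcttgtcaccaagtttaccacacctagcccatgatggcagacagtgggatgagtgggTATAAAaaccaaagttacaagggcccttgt

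These windows lie at chr15:90717246-90717345 (BLM, plus strand), chr15:64825648-64825747 (PIF1, minus strand), chrX:72239028-72239127 (ERCC6L, minus strand), chr4:68670653-68670752 (UGT2B15, minus strand), chr10:113550731-113550830 (HABP2, plus strand) and chr12:40393294-40393393 (MUC19, plus strand). BLM held CCAAT boxes beginning 46 and 21 bases before the start and a p53 decamer beginning 10 bases before it. PIF1, a helicase of telomeres and replication forks, held an inverted CCAAT box at 45 bases and a CHR at 20 bases, and ERCC6L, a helicase of mitotic chromatin bridges, held an inverted CCAAT box at 56 bases. UGT2B15 held an inverted CHR at 76 bases, MUC19 a TATA box at 30 bases, and HABP2 none of the motifs searched. In the same 100-base window, 18.7% of the 27305 promoters in the RefSeq table held CCAAT, 4.9% a CHR, 1.2% an E2F motif, 5.3% TATAAA and 2.0% a p53 decamer. Among the 173 of 214 tested cell division genes with a promoter entry, 52.0% held CCAAT, 17.9% a CHR and 12.7% an E2F motif. The shares in ribosome biogenesis genes (70 of 83 with an entry) were 18.6% for CCAAT, 5.7% for CHR and 0% for E2F. Nuclear pore and transport genes (55 of 61 with an entry) had 29.1%, 9.1% and 1.8%. In the whole 300-base entries, from 250 bases before to 50 after the start, CCAAT was held by 35.7%, CHR by 16.6% and an E2F motif by 3.3% of all promoters, and by 63%, 42.2% and 24.3% of those of cell division genes. For the highest and lowest size classes and the genes switched on, under 80% of members had an entry, so the shares are void there.

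**Figure D1:**
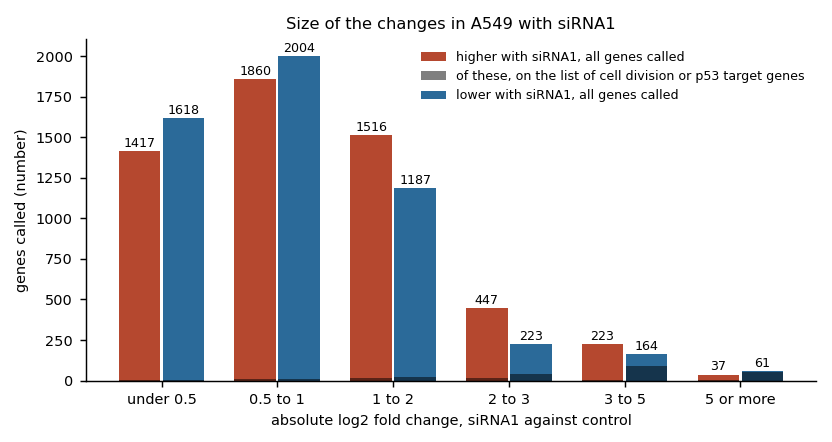
Number of genes called (adjusted p under 0.05) by absolute log2 fold change, siRNA1 against control in A549, with genes on the cell division or p53 target lists in the darker lower part of each bar. Genes lower by 5 or more are mostly on those lists, whereas nearly all genes higher by any amount are off them.

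The response covered most of the expressed genome, with 10757 of 13785 genes called (78%). Of these, 5500 were higher with siRNA1 (39.9% of genes tested) and 5257 were lower (38.1%). With a log2 change of at least 1 in addition, 2223 genes were higher (16.1%) and 1635 lower (11.9%). Scaling bears on this split: on deposited TPM values (length-scaled transcript levels, log2 of TPM plus 1), limma called 7152 genes higher and 3579 lower, and the median of all genes lay 0.26 above 0, against 0.02 with TMM. Differences of list medians given below are read against that near-zero median.

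The large decreases and the large increases were made of different genes. Of 225 genes lower by at least 3 on the log2 scale, 142 were on the list of cell division and replication genes and 83 were off it and off the p53 list. Being off the lists does not place a gene outside cell division, since PIF1 and ERCC6L, described above, are off both. Of 260 genes higher by at least 3, 252 were off both lists and 8 were p53 targets. Among the 61 genes lower by 5 or more, 10 were off both lists, and among the 37 higher by 5 or more, 35 were. Median control levels were 31.9 CPM in genes higher by under 0.5, 6.10 CPM in those higher by 1 to 2, 0.339 CPM in those higher by 3 to 5, and 0.0540 CPM in those higher by 5 or more. Genes that low in control passed the filter only through siRNA1, so low control levels in the highest classes follow from the filter and from the size of the fold. Genes lower by at least 1 had a median control level of 49.2 CPM, against 27.8 CPM for all genes tested.

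The gain and the loss in level were spread over many genes. Of the CPM gained over all tested genes with a higher mean, called or not, the 10 largest gains made up 13.8%. Of the CPM lost over all those with a lower mean, the 10 largest losses made up 6.59%. FN1, the matrix glycoprotein fibronectin, stood at 594, 382 and 565 CPM in control and 3129, 3034 and 3398 CPM with siRNA1 (log2 2.63 ± 0.15). ALDH1A1, a retinal dehydrogenase, rose from 6365, 6444 and 5716 CPM to 10331, 11412 and 10075 CPM, and ALDH3A1, which oxidises aldehydes from lipid peroxidation, from 613, 511 and 629 CPM to 2474, 2178 and 2755 CPM. On the other side, the nucleolar chaperone NPM1 fell from 2816, 3008 and 2472 CPM to 848, 906 and 786 CPM, and HNRNPA2B1, which packages nuclear RNA, from 2221, 2250 and 2055 CPM to 633, 726 and 599 CPM. In each of these 5 genes the siRNA1 and control libraries did not overlap.

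By RefSeq gene type, long noncoding RNAs leaned upward. Of 726 tested, 360 were higher (49.6%) and 182 lower, with a median log2 fold change of 0.36, while the 12649 protein-coding genes had 39.3% in either direction and a median of 0.00. By 1 or more on the log2 scale, 199 long noncoding RNAs rose and 66 fell. A shorter list of named long noncoding RNAs went the other way, with 10 of 31 tested higher and 17 lower (median -0.38). Of the 726, at least 5 were under 0.2 CPM in every control library and were tested only because of their siRNA1 level. Long noncoding RNAs are mostly low in count (median control 2.28 CPM), and the sources used here do not say whether counting used strand, so antisense and overlapping genes are uncertain. Transcripts also differed by length: the median log2 fold change was -0.10 in the shortest of 4 equal groups of genes and 0.11 in the longest.

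**Figure D2:**
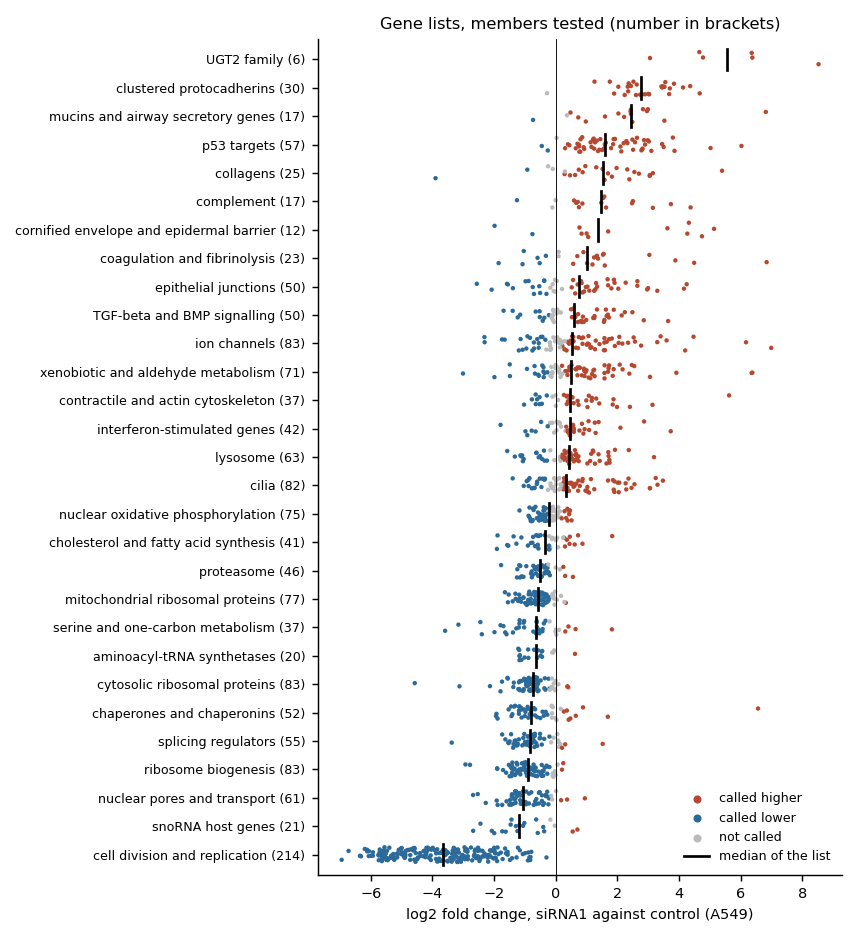
Log2 fold change (siRNA1 against control, A549) of every tested member of 29 gene lists, ordered by list median, with points coloured by call and a black bar at the median. The snoRNA host, nuclear transport and ribosome biogenesis lists sit below 0, and the UGT2, protocadherin, mucin and collagen lists above it.

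Outside cell division, the groups that fell were those of growth: ribosomes, RNA handling, nuclear transport, protein folding, and serine and nucleotide metabolism. For comparison, all 214 tested cell division genes fell (median -3.67) and 54 of 57 p53 targets rose (median 1.59). Of the 57, 2 were under 1 CPM in every control library and were tested only because of their siRNA1 level. Of the 214, 9 were under 1 CPM in every siRNA1 library and were tested only because of their control level. Of 83 ribosome biogenesis genes, which build ribosomal subunits in the nucleolus, 75 fell, 30 of them by at least 1, and 2 rose (median -0.89), where 38.1% of all genes fell and 39.9% rose. Their summed level was 48% of control. FBL, the methyltransferase of box C/D small nucleolar particles, fell from 393, 453 and 417 CPM to 113, 108 and 118 CPM (-1.90 ± 0.08), and NCL, the major nucleolar protein nucleolin, from 1988, 2037 and 1856 CPM to 729, 776 and 713 CPM (-1.41 ± 0.07). NPM3, a nucleoplasmin relative, fell furthest in the list, from 39.0, 49.9 and 43.8 CPM to 6.25, 5.51 and 5.62 CPM, followed by POLR3G, a subunit of RNA polymerase III (-2.78 ± 0.21). MYC, a driver of ribosome production that is on another list, fell by 1.13 on the log2 scale.

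Ribosomal proteins fell too, but unevenly. Of 83 cytosolic ribosomal protein genes 72 fell, 19 of them by at least 1, and 2 rose (median -0.73, summed level 59.7% of control). RPL23A fell from 1038, 1121 and 997 CPM to 246, 224 and 249 CPM, and RPL22L1, a tissue-restricted paralogue of RPL22, from 106, 117 and 74.4 CPM to 11.9, 12.1 and 10.1 CPM. RPS19 went the other way, from 1213, 1415 and 1233 CPM to 1798, 1426 and 1793 CPM (0.38 ± 0.10), although the lowest siRNA1 library there lay just above the highest control library. Ribosomal protein genes have many processed pseudogenes, so their read assignment is uncertain. Of 77 mitochondrial ribosomal protein genes 66 fell and 1 rose (median -0.58).

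Host genes of small nucleolar RNAs, a list assembled after values had been seen, showed 17 of 21 members lower and 2 higher (median -1.18). SNHG5 fell from 164, 183 and 146 CPM to 32.1, 29.5 and 29.0 CPM (-2.44 ± 0.10). GAS5 fell by 1.06 and SNHG1 by 1.46 on the log2 scale. Many of these genes carry small nucleolar RNAs in their introns, and these RNAs guide chemical marking of ribosomal RNA. The small nucleolar RNAs themselves were not analysed here.

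Transport between nucleus and cytoplasm was lowered almost throughout. Of 61 tested nuclear pore and transport genes 55 fell, 32 by at least 1, and 3 rose (median -1.05), and the summed level was 49.0% of control. XPOT, the exporter of transfer RNA, went from 451, 462 and 428 CPM to 66.2, 74.2 and 68.5 CPM (-2.68 ± 0.07), and KPNA2, an importin alpha, from 1107, 1198 and 1165 CPM to 202, 195 and 204 CPM (-2.53 ± 0.07). The pore proteins NUP58 and NUP107 fell by 2.27 and 1.6 on the log2 scale. IPO13 was 1 of the 3 that rose, from 16.2, 17.6 and 19.7 CPM to 34.6, 31.8 and 36.7 CPM. By symbol, 21 of 22 genes named NUP fell and none rose.

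RNA processing and protein folding followed. Of 55 tested splicing regulators 45 fell and 3 rose (median -0.83), with SRSF3 going from 382, 425 and 371 CPM to 130, 150 and 125 CPM. NOVA1, a splicing factor best known in neurons, rose from 8.46, 8.22 and 7.79 CPM to 21.7, 25.6 and 23.1 CPM. Of 52 chaperone and chaperonin genes 36 fell and 8 rose (median -0.79). HSP90AB1, the constitutive cytosolic HSP90, fell from 2845, 3032 and 2888 CPM to 1283, 1241 and 1307 CPM, and the mitochondrial chaperonin HSPD1 fell by 1.11 on the log2 scale. HSPA8, the constitutive HSP70, was not called (-0.01 ± 0.06), though limma called it higher by 0.26 on TPM, and the small heat shock protein HSPB8 rose from 8.94, 8.93 and 8.76 CPM to 28.0, 29.0 and 29.1 CPM. Of 46 proteasome genes 40 fell and 3 rose, by smaller amounts (median -0.51), such as PSMD11 at -0.78 ± 0.06.

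Serine and one-carbon metabolism supplies the carbon units for purines and thymidylate. Of 37 tested genes 28 fell, 17 by at least 1, and 4 rose (median -0.63). The list also holds genes of purine and pyrimidine synthesis, so these counts are not of serine and one-carbon genes alone. MTHFD2, the mitochondrial folate dehydrogenase of dividing cells, went from 340, 370 and 321 CPM to 39.7, 40.8 and 35 CPM (-3.16 ± 0.09), and SHMT2, which feeds it, from 182, 200 and 198 CPM to 51.1, 43.9 and 51.5 CPM. PPAT, which commits to purine synthesis, fell by 2.40 on the log2 scale. AMT of the glycine cleavage system, also under 1 CPM in control, went from 0.587, 0.522 and 0.520 CPM to 2.08, 1.77 and 1.94 CPM. Of 20 aminoacyl-tRNA synthetase genes 16 fell and 1 rose (median -0.65), with IARS going from 575, 583 and 565 CPM to 255, 253 and 255 CPM and SARS, the one that rose, from 102, 105 and 105 CPM to 160, 158 and 164 CPM.

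Chromatin and lipid synthesis genes were mixed. Among 59 tested chromatin silencing and nuclear lamina genes 34 fell and 17 rose (median -0.47). HMGA2, an architectural protein of embryonic and tumour cells, fell from 192, 218 and 211 CPM to 31.0, 42.3 and 30.7 CPM, HMGB1 fell by 2.33 on the log2 scale, the lamin B receptor gene LBR fell by 2.29, and LMNA, which encodes lamins A and C, rose by 0.90 ± 0.09. The histone demethylase gene KDM6B rose by 1.62. Of 41 cholesterol and fatty acid synthesis genes 24 fell and 9 rose (median -0.35), with the desaturase gene SCD falling from 1740, 1523 and 1548 CPM to 544, 537 and 537 CPM. Calls among nuclear genes of oxidative phosphorylation were lower for 38 of 75 members and higher for 9, by small amounts (median -0.22), and their balance depends on scaling, since 28 were higher and 20 lower on TPM. Glycolysis genes, 13 lower and 8 higher, were 11 and 11 on TPM.

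Secreted proteins of the complement and clotting systems were among the groups that rose. Counts in this and the other lists are to be read against all genes tested. Of those, 39.9% rose and 38.1% fell, and by at least 1 on the log2 scale 16.1% rose and 11.9% fell. Several members of the raised lists were under 1 CPM in every control library and were tested only because of their siRNA1 level, namely 4 of the 17 complement, 5 of the 23 clotting, 3 of the 17 mucin, 4 of the 25 collagen, 4 of the 50 junction, 8 of the 71 detoxification, 12 of the 82 cilia, 13 of the 83 ion channel, 4 of the 50 TGF-beta and BMP, 4 of the 60 neuronal, 3 of the 12 cornified envelope, 2 of the 42 interferon-stimulated, 2 of the 32 integrin and laminin, 1 of the 34 secretome and 1 of the 63 lysosomal genes, so sums over all listed genes are given where they show the size. Of 17 tested complement genes 14 rose, 9 by at least 1, and 1 fell (median 1.48). C3, the central component, rose from 55.3, 44.2 and 62.7 CPM to 303, 283 and 317 CPM (2.48 ± 0.12). CFI, the protease that inactivates C3b, was under 1 CPM in control and went from 0.907, 0.55 and 0.546 CPM to 14.0, 15 and 12.9 CPM. The gene that fell was C1QBP, a mitochondrial protein that also binds C1q, which fell by 1.26 on the log2 scale. Over all 26 listed genes, tested or not, the summed level was 1.40 times control.

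Of 23 tested clotting and fibrinolysis genes 15 rose and 6 fell (median 1.02), and the sum over all 35 listed genes was 2.09 times control. THBD, the thrombin receptor thrombomodulin, rose from 21.2, 19.8 and 22.7 CPM to 175, 176 and 173 CPM (3.04 ± 0.08). PROC, the anticoagulant protease that thrombomodulin activates, went from 0.400, 0.577 and 0.390 CPM to 6.78, 5.27 and 8.22 CPM. HABP2, a plasma protease that binds hyaluronan, was 1 of the genes switched on, which are described without a test, with a ratio of siRNA1 to control of 119 (95% counting interval 64.7 to 249.5). VTN, the adhesive plasma protein vitronectin, rose from 4.64, 3.85 and 4.13 CPM to 28.8, 24.8 and 29.5 CPM, whereas AMBP, the precursor of a plasma protease inhibitor, fell by 1.12. The 7 hepatocyte markers stayed below 1 CPM, with a sum of 0.130 to 0.275 CPM in control and 0.955 to 1.04 CPM with siRNA1.

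**Figure D3:**
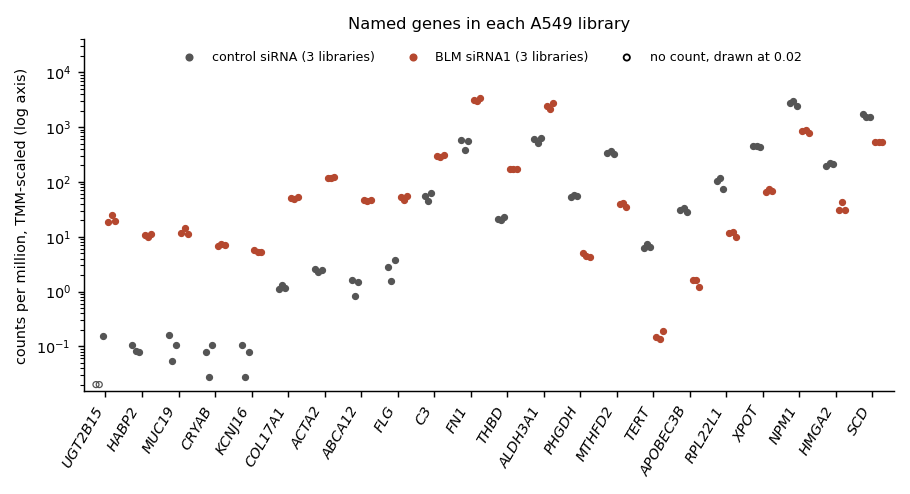
Level of 22 named genes in each of the 3 control and 3 siRNA1 libraries of A549 (CPM on TMM-scaled library sizes, log axis), with libraries at no count drawn open at 0.02. The 2 groups are apart in every gene shown, from UGT2B15, at no count in 2 control libraries, to the abundant FN1 and NPM1.

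Mucosal and epidermal genes rose as well. Of 17 tested mucin and airway secretory genes 15 rose, 12 by at least 1, and 1 fell (median 2.43), and the list's sum was 3.06 times control. MUC1, a membrane mucin, rose from 1.57, 0.989 and 1.33 CPM to 14.6, 13.8 and 16.7 CPM, and CEACAM6, a cell adhesion protein of epithelia, from 27.6, 21.6 and 29.0 CPM to 201, 202 and 207 CPM. MUC5B, a gel-forming airway mucin, varied in control (8.35, 1.92 and 8.47 CPM) and was 33.7, 30.5 and 41.3 CPM with siRNA1. In a list of cornified envelope and epidermal barrier genes, assembled after values had been seen, 10 of 12 tested members rose and 2 fell. FLG, which encodes the filament-binding protein filaggrin of the skin barrier, rose from 2.77, 1.54 and 3.69 CPM to 53.3, 47.5 and 54.8 CPM (4.27 ± 0.21). ABCA12, a lipid transporter of the epidermis, rose from 1.60, 0.824 and 1.48 CPM to 47.0, 44.5 and 46.9 CPM.

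Junction genes moved in both directions. Of 50 tested epithelial junction genes 29 rose, 20 of them by at least 1, and 14 fell (median 0.77). DSC3, a desmosomal cadherin, rose from 1.36, 0.989 and 1.17 CPM to 19.8, 24.1 and 19.4 CPM, and JUP, the plakoglobin that anchors it, from 102, 93.1 and 117 CPM to 392, 353 and 429 CPM. The epidermal transcription factor GRHL3 rose by 4.25 ± 0.13. CGN, which encodes cingulin of tight junctions, fell from 13.9, 13.4 and 15.4 CPM to 2.40, 2.35 and 2.48 CPM. VIM, the intermediate filament of mesenchymal cells, was not called (-0.07 ± 0.06), though limma called it higher by 0.21 on TPM, and of the repressors of E-cadherin SNAI1 fell by 1.58 while SNAI2 rose by 2.65.

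More matrix and contractile genes rose than fell. Of 25 tested collagen genes 20 rose, 14 by at least 1, and 2 fell (median 1.52), and the sum over all 42 listed collagens was 2.17 times control. The type IV collagens split by chain. COL4A5 rose from 107, 98.0 and 105 CPM to 501, 537 and 517 CPM, and COL4A6 from 108, 103 and 108 CPM to 415, 400 and 437 CPM. COL4A2, of the chain pair that is found in nearly all basement membranes, fell from 377, 376 and 391 CPM to 196, 192 and 216 CPM, and COL4A1, its partner, was not called (-0.09 ± 0.07). COL5A2, a fibrillar collagen chain, rose from 419, 352 and 369 CPM to 1079, 1098 and 1096 CPM, and COL13A1, a transmembrane collagen, fell by 3.90 ± 0.35. The summed fibroblast markers given above were also higher with siRNA1. They include COL1A1 and COL3A1, which are on the collagen list, and most of their siRNA1 counts were COL1A1. The marker sum is therefore not a measure separate from the collagens, and a part of fibroblasts in the collagen result was not tested. Of 37 tested contractile and actin cytoskeleton genes 24 rose and 9 fell (median 0.45), among them FHL2, from 21.0, 22.9 and 23.6 CPM to 85.0, 78.0 and 85.1 CPM, and the actin crosslinker FLNA, from 1756, 1691 and 2188 CPM to 3965, 3616 and 4281 CPM. Of 32 tested integrin and laminin genes 17 rose (53.1%, against 39.9% of all genes) and 11 fell (34.4%, near the 38.1% of all genes), with a median of 0.45.

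Of 50 tested TGF-beta and BMP genes 28 rose and 10 fell (median 0.60). The receptor gene TGFBR2 rose from 213, 200 and 209 CPM to 612, 628 and 601 CPM, and the feedback inhibitor SMAD7 rose by 1.58 on the log2 scale. The ligand gene BMP2, under 1 CPM in control, went from 0.133, 0.357 and 0.208 CPM to 2.85, 2.92 and 3.06 CPM. The ID genes, which block basic helix-loop-helix factors, split: ID1 rose by 1.22 and ID2 fell by 1.23. Of 34 tested genes of the senescence-associated secretome 18 rose (52.9%, against 39.9% of all genes) and 12 fell (35.3%, close to the 38.1% of all genes). IGFBP3, which binds insulin-like growth factors, rose from 111, 91.5 and 101 CPM to 495, 546 and 490 CPM, while CXCL5, a neutrophil chemokine, fell from 495, 581 and 568 CPM to 164, 219 and 160 CPM. Of 42 tested interferon-stimulated genes 25 rose and 7 fell (median 0.45). The guanylate-binding protein gene GBP2, under 1 CPM in control, went from 0.454, 0.467 and 0.286 CPM to 5.58, 5.08 and 5.46 CPM.

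Detoxification genes moved in both directions, more of them up. Of 71 tested genes of xenobiotic and aldehyde metabolism 42 rose and 15 fell (median 0.51). CYP1B1, a cytochrome P450 of the aryl hydrocarbon receptor pathway, rose from 41.4, 37.5 and 39.1 CPM to 203, 264 and 187 CPM, and the receptor gene AHR itself from 39.0, 36.7 and 41.0 CPM to 129, 167 and 124 CPM. GCLM, the regulatory subunit of glutathione synthesis, fell from 212, 213 and 203 CPM to 46.5, 64.8 and 47.0 CPM. The drug exporter gene ABCG2 fell from 100, 94.1 and 93.2 CPM to 11.7, 12.5 and 11.5 CPM (-3.01 ± 0.08). Of 63 tested lysosomal genes 43 rose and 15 fell (median 0.43), with the protease gene CTSD going from 140, 143 and 172 CPM to 503, 430 and 555 CPM and CTSL, another cathepsin, falling by 1.33.

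UGT2 enzymes attach glucuronic acid to steroids, bile acids and drugs, and as a family they were nearly silent in control cells. Of 10 UGT2 genes in the files 6 were tested, none of them at 1 CPM in any control library, and a list of this family was made after values had been seen. The summed level of the 7 UGT2B genes was 1.23, 0.467 and 0.857 CPM in control and 47.0, 48.7 and 43.6 CPM with siRNA1, 54.6 times control. UGT2B15 contributed 0, 0 and 6 counts in control against 720 to 899 with siRNA1. The UGT2B genes are near-identical, and UGT2B17 varied from 0.109 to 5.45 CPM among siRNA1 libraries, so the split between members is uncertain and the sum is the safer value.

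The clustered protocadherins, cell surface proteins that give neurons individual identities, also rose together. Of 51 listed genes of the 3 clusters 30 were tested, and 8 of these reached 1 CPM in all control libraries while 18 did so in none. The sum over all 51 rose from 35.3, 34.3 and 36.4 CPM to 191, 204 and 192 CPM, 5.54 times control, in a list made after values had been seen. PCDHA12 rose by 3.43, PCDHB2 by 2.03 and PCDHGB5 by 3.71 on the log2 scale. PCDHGC3 and PCDHAC2, of the C type whose promoters are not chosen at random, were not called: their log2 fold changes were -0.28 and 0.09. PCDHAC2 is not among the 51 listed genes or in their sum. PCDHGC3 was close to the threshold and was called lower without the second control library (-0.39) or the third siRNA1 library (-0.34). It was also called lower with DESeq2 size factors (-0.29), without a low-count filter (-0.33), with edgeR's own filter (-0.31) and with a replicate block (-0.27). PCDHAC2 was called higher on TPM (0.49). Alpha and gamma genes share constant exons within their cluster, so counts may be divided among members.

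Genes of specialised cell types were mixed in with these. Of 82 tested cilia genes 50 rose and 16 fell (median 0.35), but the summed level of all 96 listed cilia genes was lower, 2471 CPM in control and 2239 CPM with siRNA1, 90.6% of control. RSPH1, of the radial spoke of motile cilia, went from 0.374, 0.247 and 0.390 CPM to 3.58, 3.93 and 3.90 CPM, while the tubulin gene TUBB4B fell from 596, 664 and 673 CPM to 255, 222 and 258 CPM. The summed ciliated cell markers were 604 to 682 CPM in control and 245 to 289 CPM with siRNA1. The abundant TUBB4B is in both sums, makes up most of the marker sum and lost more CPM than the cilia sum did. Of the 5 ciliated cell markers tested 4 rose and 1, TUBB4B, fell (median 1.65). Of 83 tested ion channel genes 48 rose and 19 fell (median 0.54), with the sodium channel gene SCN2A at 0 to 1 counts in control and 90 to 111 with siRNA1. Of 60 tested neuronal and synaptic genes 35 rose and 19 fell. NPTX1, a secreted synaptic pentraxin, fell from 212, 222 and 208 CPM to 28.0, 28.6 and 29.9 CPM. In the APOBEC3 family of cytidine deaminases, listed after values had been seen, APOBEC3B fell from 30.7, 33.9 and 28.6 CPM to 1.63, 1.61 and 1.2 CPM (-4.39 ± 0.13) and its neighbour APOBEC3C rose from 18.5, 17.7 and 20.3 CPM to 52.2, 51.9 and 55.2 CPM.

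**Figure D4:**
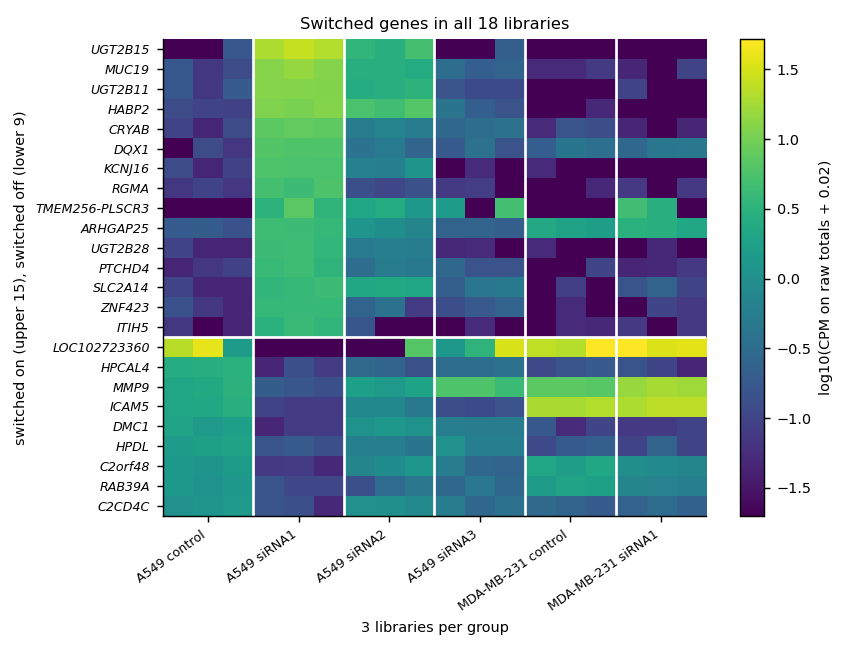
Level of the 15 highest genes switched on (upper block) and the 9 switched off (lower block) by siRNA1 in A549, in each of the 18 libraries (colour, log10 of CPM on raw totals plus 0.02). The upper block is bright in the A549 siRNA1 libraries and partly so with siRNA2 for several genes, among them UGT2B15, UGT2B11, MUC19, HABP2 and SLC2A14. It is dark in the MDA-MB-231 libraries for most genes, with ARHGAP25 and TMEM256-PLSCR3 as exceptions.

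A gene was counted as switched on when all 3 control libraries were under 0.2 CPM and all 3 siRNA1 libraries at least 1 CPM, on raw totals, and as switched off in the reverse case. Such genes pass the low-value filter only through the group where they are high, so they are described without a test. By this rule 73 genes were switched on and 9 off. Just inside the limits for being on were COL9A2 and ALPL, whose highest control library had 0.198 CPM, and just outside was PCDHB13, at 0.203 CPM. Just inside for being off was MMP9, with 0.186 CPM in its highest siRNA1 library, and just outside were VGF and COL13A1, at 0.2005 CPM.

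Of the 73 genes switched on 66 were protein coding, 5 were long noncoding RNAs, and 1 was on the cell division or p53 lists. CRYAB, a small heat shock protein of lens and muscle, had 1 to 4 counts per control library and 258 to 271 with siRNA1, a ratio of 99.1 (95% counting interval 50 to 230). DQX1, a helicase-like gene, had 0 to 4 and 208 to 237 counts. RGMA, a guidance protein and BMP co-receptor, had 2 to 3 and 150 to 200 counts, and KCNJ16, an inward rectifier potassium channel, 1 to 4 and 189 to 227. ITIH5, which binds hyaluronan, had 0 to 2 and 114 to 144 counts. With siRNA2, 12 of the 73 genes were at 1 CPM or more in all 3 libraries, and with siRNA3 6 were. The median level with siRNA1 was 1.80 CPM, and UGT2B15 at 21.0 CPM was the highest.

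In 12 of the 73 another switched-on gene lay within 5 genes in RefSeq order. Among them are the UGT2 cluster (UGT2A3, UGT2B11, UGT2B15, UGT2B28), the protocadherin beta cluster (PCDHB11, PCDHB14, PCDHB15) and the pair VIL1 and CATIP. Only TMEM256-PLSCR3 and SIK1B were at 0 in all control libraries. Both share sequence with other genes, and the summed levels moved far less: SIK1 and SIK1B together went from 197 CPM to 346 CPM, and TMEM256, PLSCR3 and their readthrough from 54.2 to 74.7 CPM. SLC2A14, a copy of the glucose transporter gene SLC2A3, had 1 to 3 counts in control and 129 to 151 with siRNA1, and with SLC2A3 it summed to 35.8 and 141 CPM.

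Of the 9 genes switched off, HPCAL4, a neuronal calcium sensor, had 102 to 122 counts per control library and 1 to 4 with siRNA1. ICAM5, an adhesion molecule of neurons, had 81 to 110 and 2 to 3, DMC1, the meiotic recombinase, 54 to 78 and 1 to 2, and MMP9, a gelatinase, 82 to 126 and 4 to 7. The others were HPDL, C2orf48, RAB39A, C2CD4C and LOC102723360. The last had 62 to 1505 counts in control and 0 in every siRNA1 library, at least 818-fold higher in control taking 3 counts over the siRNA1 group as the limit, but its spread within control and the 0 to 6.48 CPM among siRNA2 libraries make it uncertain.

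Several genes, picked after their values had been seen, fell steeply with siRNA1 in both cell lines and did not fall with siRNA2 or siRNA3: RPS9, HADHA and DYNLT1. RPS9, a protein of the small ribosomal subunit, stood at 404, 479 and 413 CPM (raw totals) in A549 control and at 21.7, 17.6 and 21.4 CPM with siRNA1, 4.68% of control. It was 505, 514 and 466 CPM with siRNA2 and 388, 396 and 489 CPM with siRNA3. In MDA-MB-231 it was 280.1, 280.1 and 235 CPM in control and 31.2, 36.9 and 35.6 CPM with siRNA1, 13% of control. BLM in that line was reduced to 15.7% of control. The RPS9 log2 fold change was -4.57 ± 0.11 in A549, and the direct differences were -4.67 from siRNA2 (adjusted p 1.5e-11) and -4.55 from siRNA3 (adjusted p 1.6e-11).

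HADHA, the alpha subunit of the mitochondrial trifunctional protein of fatty acid oxidation, stood at 267, 265 and 270 CPM in A549 control and 28.7, 29.8 and 34.7 CPM with siRNA1, against 354 to 385 CPM with siRNA2 and 333 to 360 CPM with siRNA3. In MDA-MB-231 it went from 210 to 223 CPM in control to 42.6 to 46.3 CPM. DYNLT1, a dynein light chain, stood at 37.3 to 45.0 CPM in A549 control, 3.21 to 3.75 CPM with siRNA1, 37.5 to 41.6 CPM with siRNA2 and 51.9 to 79.9 CPM with siRNA3. In MDA-MB-231 it went from 54.4 to 62.2 CPM to 8.14 to 10.1 CPM. For both genes the siRNA1 libraries lay below every other library of their line, and the differences of siRNA1 from siRNA2 were -3.65 (HADHA) and -3.59 (DYNLT1). Smaller decreases in both lines were seen for BUD13, a splicing factor (-2.21 in A549 and -2.08 in MDA-MB-231), which also fell by 0.29 with siRNA2, and GOPC, a Golgi scaffold (-2.05 and -1.93), which was not called with siRNA2 or siRNA3. SLC2A3 showed the pattern in the other direction, with log2 fold changes of 1.94 in A549 and 2.04 in MDA-MB-231, against -0.14 with siRNA2 and -0.46 with siRNA3. The cause of these patterns was not tested.

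**Figure D5:**
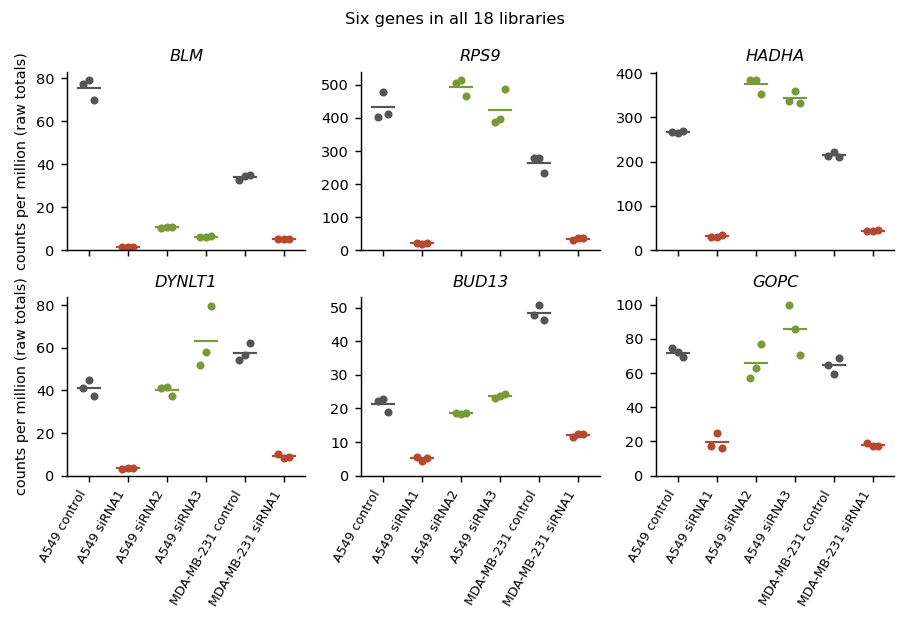
Level of BLM and 5 other genes (CPM on raw totals) in each of the 18 libraries, with group means as lines. BLM is low with every BLM siRNA, whereas RPS9, HADHA, DYNLT1, BUD13 and GOPC are lowest with siRNA1 in both lines.

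How far the siRNA1 response differed from those to the other BLM siRNAs was tested directly among the 12 A549 libraries. Between siRNA1 and siRNA2 8307 of 14098 genes differed (58.9%), and between siRNA1 and siRNA3 9743 did (69.1%). For ribosomal proteins, 60 of 83 were lower with siRNA1 than with siRNA2, against 27.7% of all genes, and 1 was higher. Against siRNA3, 76 of 83 were lower and none higher, where 34.7% of all genes were lower. Of 61 nuclear pore and transport genes 42 were lower than with siRNA2 and 54 lower than with siRNA3. The median difference over the 83 ribosomal protein genes was -0.59 from siRNA2 and -0.75 from siRNA3, and that of RPL3 was -1.71 and -1.63.

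Genes that rose did not all set siRNA1 apart. Of 17 complement genes 7 were higher and 4 lower with siRNA1 than with siRNA2, where 31.2% of all genes were higher, and 12 were higher and 2 lower than with siRNA3 (34.4%). C3 differed from its level with siRNA2 by -0.04 ± 0.11 and was not called there, but lay 4.18 above its level with siRNA3. Of 17 mucin and secretory genes 6 were higher and 10 lower than with siRNA2, and 16 were higher than with siRNA3. FLG, by contrast, was 3.83 above siRNA2 and 3.99 above siRNA3, and its level was above 1 CPM in every control library.

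In MDA-MB-231 siRNA1 called 8098 of 13572 genes (59.7%), but 351 were higher (2.59%) and 581 lower (4.28%) by at least 1, against 2223 and 1635 in A549. The 2 lines have separate controls. Of 3106 genes that changed by at least 1 in A549 and were tested in both lines, 1795 were called in the same direction in MDA-MB-231, 408 in the opposite direction and 903 not at all. Of all 12479 genes tested in both lines, 5946 were called in both, 4307 in the same direction and 1639 in the opposite direction. The effect differed between the lines in 9450 of 14896 genes (63.4%). Of 83 ribosomal protein genes the A549 effect was lower in 68 and higher in 1, where 34.1% of all genes were lower, and of 57 p53 targets it was higher in 50, where 29.3% of all genes were. The 57 include the 2 that were under 1 CPM in every A549 control library. MTHFD2, down in A549, rose by 0.57 in MDA-MB-231 (difference -3.76), and the asparagine synthetase gene ASNS, which fell by 2.12 in A549, rose by 1.11 (difference -3.25). BLM itself was lowered further in A549 than in MDA-MB-231, by 3.33 on the log2 scale, and the part of this difference in the others was not tested.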

How the data were processed

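Total RNA depleted of ribosomal RNA was sequenced with a stranded kit, per the labels' protocols, and the authors' expected counts came from RSEM on hg19, per the submitters' processing notes, with annotation, strand setting and aligner not given in the sources used here. TPM as deposited entered alternatives only, and the deposited FPKM values were not used. Expected counts were rounded, genes with at least 1 CPM in at least 3 of 6 libraries kept, and groups compared with edgeR 4.0.16 (R 4.3.3; TMM, quasi-likelihood F test, Benjamini-Hochberg adjustment). The direct differences among siRNAs, and between lines, were contrasts fitted over 12 libraries each. Alternatives used DESeq2 1.42.0, limma 3.58.1, other scalings and filters, a replicate block, and each library left out. On simulated counts with 200 genes changed, 80.6% of 1.5-fold and 98.5% of 2-fold changes were recovered in this comparison (13574 genes), and 16 unchanged genes were called. In the data 78% of genes were called, a far larger share than was changed there, so these rates may not carry over. Tables and figures were made with Python 3.11.15.

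The members and lists were chosen with earlier results of these data known. Genes were named by rule: BLM; off the cell division and p53 lists, the 25 highest and 25 lowest fold changes where the mean log2 CPM was 1 or more, plus the 15 largest gains and losses in CPM; the 15 highest switched genes; 4 highest, 4 lowest and 2 most abundant per list; and 5 per direction for each difference. Others, among them C3, FLG, BUD13, GOPC, COL4A5, COL4A6, MYC, AHR, ASNS, TGFBR2 and the protocadherins, were chosen after their values were seen. Promoters are from RefSeq, GRCh38.p14, and no hg19 coordinates are given. Counting intervals and the floor of 3 counts cover counting error only.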

Additional observations from a re-analysis of the deposited data

Results flagged for a closer look

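The effect of siRNA1 differed between A549 and MDA-MB-231 in 9450 genes by edgeR's interaction test. BLM itself was among them, with a difference (A549 minus MDA-MB-231, log2) of -3.33.

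The genes named by rule for low differences were LOC102723360 at -12.94, the homeobox gene LHX2 at -7.24, NPTX1 at -6.90, the membrane protease gene MMP17 at -6.27 and the cation channel gene TRPA1 at -6.03. Those named for high differences were HABP2 at 8.79, CRYAB at 8.76, KCNJ16 at 8.13, MUC19 at 7.04 and the riboflavin transporter gene SLC52A1 at 6.72. Apart from BLM and LOC102723360, these genes were too low in MDA-MB-231 to be tested in that line alone, so the fitted difference depends on the prior count and its size should not be read as a fold. HABP2, CRYAB, KCNJ16 and MUC19 are also among the genes switched on, and they pass the low-value filter only through the A549 siRNA1 libraries. Their differences are therefore a description and not a test. The named differences are not the largest of all: PINCR, at 9.43, and SCN2A, at 7.62, were not named for this difference.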

How the results depend on the processing

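Of 2208 values for the named genes under 16 alternatives, 2188 kept their direction and their side of the threshold. On TPM, HSPA8 changed sign to 0.262 with either pseudocount, and VIM to 0.207. The other changes concerned PCDHGC3, PCDHAC2 and TMEM256, all near 0. Genes lower by at least 1 numbered 888 on log2(TPM + 1) and 1051 on log2(TPM + 0.1), where the median of all genes shifts up by 0.26 and 0.28. Upper quartile scaling shifts it to 0.14. Genes switched on numbered 11 with limits of 0.1 and 2 CPM and 288 with 0.5 and 1 CPM. On TPM 90 genes were on, 39 of them among the 73, and on TMM-scaled CPM 64, all among the 73. Genes switched off numbered 1 and 50 with those limits, 24 on TPM and 14 on TMM-scaled CPM, and 9 to 14 when each library was left out, with 14 without the second siRNA1 library. The CHR and CCAAT shares of all promoters, 16.6% and 35.7% in 300 bases, were 4.94% and 18.7% in 100 bases. The other causes were not tested. Whether libraries pair by replicate number is not stated. Same-numbered libraries had deviations correlated at -0.042, 0.099 and 0.238, and differently numbered ones at -0.232 to 0.128. With 3 libraries per group these values cannot decide whether the libraries are paired. A fit with the replicate block called 10923 genes. Leaving out each library gave 10105 to 11326 calls. Low genes limit precision, since genes higher by 5 or more have a median control level of 0.0540 CPM.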
